A study of Arabidopsis thaliana with 8 samples.

Results

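The genes described here are 10 root identity genes of Arabidopsis thaliana, PLT1 (AT3G20840), PLT2 (AT1G51190), WOX5 (AT3G11260), SMB (AT1G79580), BRN1 (AT1G33280), BRN2 (AT4G10350), RHD6 (AT1G66470), COBL9 (AT5G49270), EXPA7 (AT1G12560) and CASP1 (AT2G36100), examined in chromatin prepared from shoots. They were picked by name and locus identifier and make up 10 of the 27444 protein-coding genes on the nuclear chromosomes. Open chromatin was mapped with ATAC-seq, an assay that reads where the transposase Tn5 can reach and cut the DNA of intact nuclei. A gene was counted as having a peak in a library when a listed peak overlapped the gene or the 1000 bp on either side by at least 1 bp.

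All 8 libraries came from shoots of young plate-grown plants of recombinant inbred lines from a cross of the accessions Landsberg erecta (Ler) and Cvi, so every plant carries a mosaic of the Ler and Cvi genomes, while peak positions are those of the TAIR10 genome, the sequence of the accession Col-0. The lines were RIL149 and RIL50, which the series text describes as differing in their rate of spontaneous CG methylation change. Each line was represented at generation 3 and at generation 10 by lineages 1 and 2, for 4 libraries of each line and 4 of each generation. The generation 10 libraries were of sublineage 2 except that of RIL149 lineage 2, which like all generation 3 libraries was of sublineage 1. The labels do not say whether a library came from 1 plant or a pool. No wild-type or root library was analysed here.

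In a growing root, PLT1, PLT2 and WOX5 act in the stem cell niche, SMB, BRN1 and BRN2 in the root cap, RHD6, COBL9 and EXPA7 in root hairs, and CASP1 in the endodermis. Genes of this kind are transcribed in few cell types of the root and are known mainly from that organ. In leaves and stems many such genes lie in chromatin marked by Polycomb group proteins, which is usually poor in open sites. In a whole shoot, a site open in few cells and a site weakly open in many cells cannot be told apart.

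As a reference from green tissue, 10 genes of photosynthesis and chlorophyll synthesis were examined. Without a root library they do not test the tissue label. All 10, among them CAO, GAPA, LHCA1 and LHCB1.3, had a peak in all 8 libraries, against 45.2% of all protein-coding genes. All 10 also had, in at least 1 library, a peak summit nearer to them than to any other gene, against 56.9%. A peak's strength is given here as the authors' fold enrichment, the summit pileup over the local background of the same library. The strongest peak at LHCB1.3, a gene of the light-harvesting antenna, had a fold of 6.65 to 14.2 over the libraries. That at CAO had a fold of 2.81 to 5.71. The lists held 13186 to 21540 nuclear peaks, and the pileup expected from background alone, which grows with sequencing depth, was 8.71 to 25.3 by recovery from fold and p. At that background the weakest listed peak of a library had a fold of 1.56 to 1.96. A gene without a listed peak may therefore still hold an open site that was not detectable at this depth.

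In shoot chromatin the root identity genes had a peak in a median of 2 of the 8 libraries, against 7 for all protein-coding genes. In all 8 libraries a peak was listed for 1 of the 10 genes, CASP1, against 45.2% of all protein-coding genes. In no library was a peak listed for 4 of the 10, PLT1, PLT2, BRN2 and RHD6, against 26.6% of all protein-coding genes. In between stood SMB with 1 library, BRN1 with 3, COBL9 with 4, WOX5 with 5 and EXPA7 with 6. At least 1 library thus held a peak for 6 of the 10 genes, against 73.4% of all genes. In all, 27 of the 80 combinations of a gene and a library held a peak, with 36 peaks. A peak in 1 to 7 libraries was listed for 5 of the 10 genes, against 28.1% of all genes. The share of all genes with a peak ranged from 47.9% to 68.7% over the libraries, and that of the root identity genes from 20% to 50%.

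**Figure D1:**
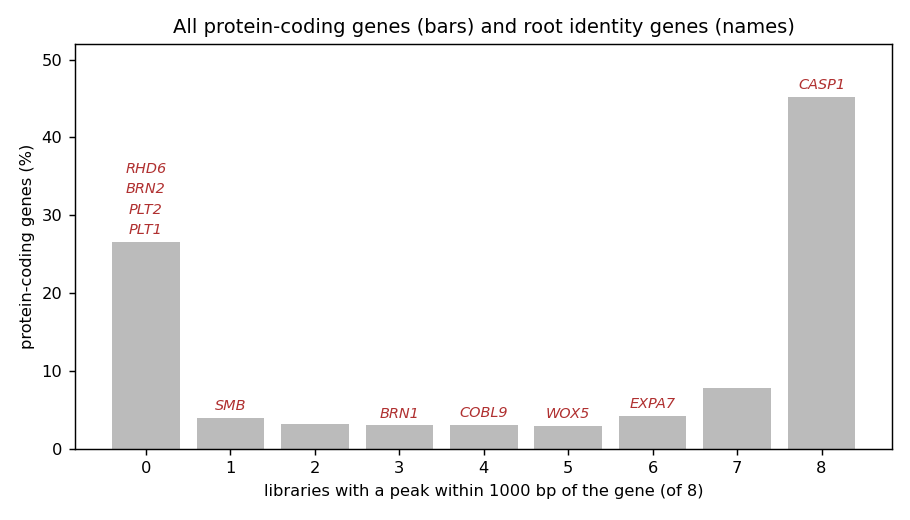
Bars give the percentage of all 27444 protein-coding genes by the number of libraries, of 8, with a peak within 1000 bp of the gene. The names mark the root identity genes: 4 stand at no library and CASP1 alone at 8.

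Most of the peaks that were listed lay closer to a neighbouring gene than to the root gene. Of the 36 peaks, 5 had their summit nearest to the root gene itself, 4 at COBL9 and 1 at SMB, so that 2 of the 10 genes had such a peak in at least 1 library, against 56.9% of all protein-coding genes and 77.5% of those with any peak. In all 8 libraries 0 of the 10 had one, against 26.7% of all genes. Peaks that overlapped the gene body were found at 2 of the 10 genes, 1 library each at SMB and CASP1, against 53.9% of all genes, and 0 of the 10 had one in all 8 libraries, against 26.1%. The folds of the 36 peaks ran from 2.06 to 6.66 with a median of 3.68. Ranked by fold within their own lists, 29 of the 36 lay in the lower 50% of peaks, and the highest stood at the 68.1 percentile. CASP1, with 2 peaks in each of the 8 libraries, weighs more than any other gene in these pooled values and in the widths below. When only the strongest peak of a gene in each library was taken, the median percentile was 36.7 for the root identity genes with a peak. It was 84.5 for the 10 photosynthesis and chlorophyll genes and 45.9 for the further root genes described below. The widths of the 36 peaks, from 131 to 466 bp with a median of 266 bp, stood at a median percentile of 45.2 of width.

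**Figure D2:**
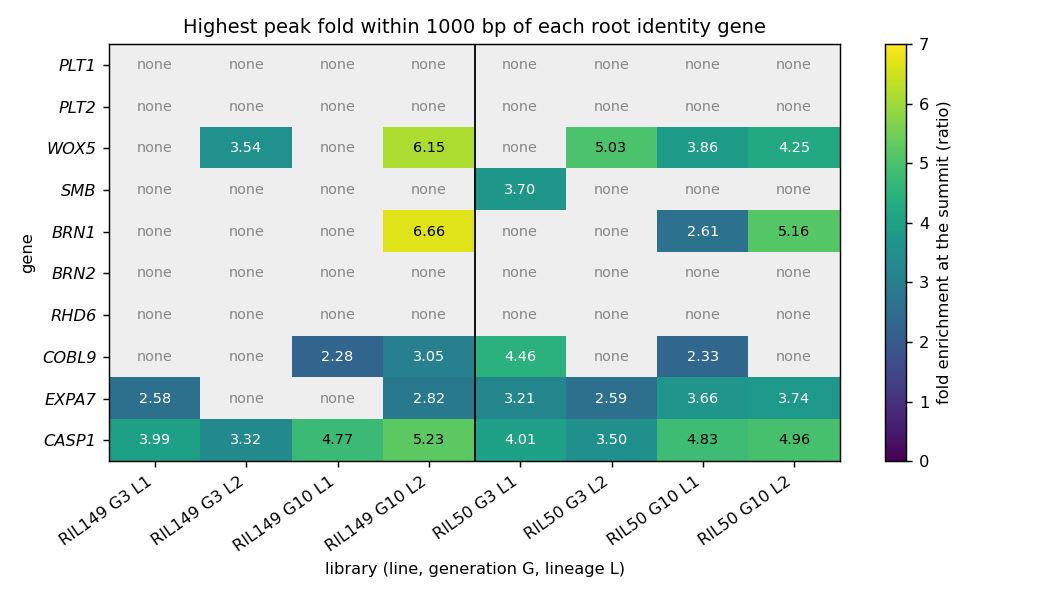
Each cell gives the highest fold enrichment at a summit, as a ratio, among the listed peaks within 1000 bp of a gene (rows) in a library (columns, G for generation and L for lineage). Grey cells had no listed peak. CASP1 fills all 8 columns, at 3.32 to 5.23, and the highest cell is BRN1 in RIL149 generation 10 lineage 2, at 6.66.

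Among the genes of the stem cell niche, PLT1 and PLT2 had no peak in any library. They encode AP2-domain transcription factors that maintain the root meristem in a dose-dependent way. PLT1 stood 1866 to 13931 bp from its nearest listed peak, with a median of 9015 bp over the libraries, farther than for 93.7% of protein-coding genes. The closest of these, in RIL50 generation 3 lineage 1 and RIL149 generation 10 lineage 2, lay 1866 and 1911 bp away, had folds of 2.68 and 1.80, and had summits nearest to NEK5. For PLT2 the nearest peak lay 3627 to 6103 bp away, with a median of 6040.5 bp.

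WOX5, a homeobox gene of the quiescent centre and the root relative of the shoot stem cell gene WUSCHEL, had 1 peak in each of 5 libraries. In RIL149 its fold was 3.54 at generation 3 lineage 2 and 6.15 at generation 10 lineage 2, and no peak was listed in either lineage 1 library. In RIL50 the fold was 5.03 at generation 3 lineage 2, 3.86 at generation 10 lineage 1 and 4.25 at generation 10 lineage 2, and no peak was listed at generation 3 lineage 1. The peak was thus present in all 4 lineage 2 libraries and in 1 of the 4 lineage 1 libraries, although lineages of different lines share only a number. This exact combination of libraries was held by 2 protein-coding genes, WOX5 included. Those of BRN1, EXPA7, COBL9 and SMB were held by 31, 39, 84 and 215. The lineage split was noticed in the data and was not tested. The share of all genes with a split of this size between lineage numbers, in any combination of libraries, was not counted.

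The WOX5 peaks were narrow and stood in 1 place. They lay between 3528691 and 3528886 on chromosome 3, were 131 to 194 bp wide, and had summits within 21 bp of each other. Those summits were 346 to 367 bp beyond the higher-coordinate end of WOX5 and 0 to 15 bp from MEE34, the next gene, which starts 360 bp after WOX5 ends. The pileup at the summit was 132 in RIL149 generation 10 lineage 2 and 47 in RIL149 generation 3 lineage 2, over backgrounds of 20.6 and 12.5. RIL149 generation 3 lineage 2, with the shortest list of 13186 peaks, held a WOX5 peak, and RIL149 generation 10 lineage 1, with 19542, held none. A role of list length or depth was not tested. Where the peak was missing the nearest listed peak lay 3228 to 3245 bp away.

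The root cap genes SMB, BRN1 and BRN2 encode NAC transcription factors that drive the maturation of root cap cells. SMB had peaks within 1000 bp in 1 library, RIL50 generation 3 lineage 1. One of these lay inside the gene (chromosome 1, 29942157 to 29942348) with a fold of 3.70 and a summit pileup of 35. The other lay 864 bp from the lower-coordinate end of SMB, with a fold of 2.06 at a pileup of 19, close to the lowest pileup of 18 that this list holds at its background. Neither was listed in any other library.

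Just outside the 1000 bp limit, SMB had a peak that separated the lines. Every RIL50 library listed it (4 of 4) and no RIL149 library did (0 of 4), between 29939288 and 29939581 on chromosome 1, 1222 bp from SMB. Its fold was 4.22 and 3.08 at generation 3 (lineages 1 and 2) and 2.61 and 4.05 at generation 10, with summit pileups of 39 to 80. All 4 peaks ended at the same base. Of the 1494 regions with 1 peak in each of 4 libraries, 4.55% had a start or an end that all 4 peaks shared. The summits lay nearer to AT1G79570, at 514 to 725 bp, than to SMB. With a limit of 2000 bp SMB would count as present in all RIL50 and no RIL149 libraries, as 0.408% of protein-coding genes did with that limit (two-sided exact permutation test, p = 0.0286, the smallest possible; adjusted p = 1). Of the 24103 regions formed by merging overlapping peaks of all libraries, 0.888% were listed in all RIL50 and no RIL149 libraries and 1.59% in all libraries of one line and none of the other. Which of the Ler and Cvi genomes each line carries at the SMB site was not examined. Whether sequence or read mapping differed there between the lines was not tested.

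BRN1 had 1 peak in each of 3 libraries, all of generation 10. The fold was 6.66 in RIL149 generation 10 lineage 2, 2.61 in RIL50 generation 10 lineage 1 and 5.16 in RIL50 generation 10 lineage 2, with summit pileups of 143, 55 and 50. No peak was listed in RIL149 generation 10 lineage 1 or in any generation 3 library. In these the nearest listed peak lay 5941 to 5970 bp away, so the libraries fell into those with a peak at the edge of the gene and those with none for several kilobases. The peaks were 143 to 170 bp wide, between 12073974 and 12074148 on chromosome 1, and ran from the 133 bp gap between BRN1 and AT1G33290 into the latter. Their summits lay 79 to 133 bp from BRN1 and 1 to 55 bp from AT1G33290.

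The generation pattern of BRN1 did not pass the test. The exact permutation p for 3 of 4 against 0 of 4 libraries was 0.143 (two-sided; adjusted p = 1 over the 7724 genes with a peak in some but not all libraries). Of all protein-coding genes, 0.885% had a peak in at least 3 generation 10 libraries and no generation 3 library, and 0.0364% the reverse. BRN2, whose product acts redundantly with BRN1, had no peak in any library, and its nearest listed peak lay 3118 to 7005 bp away.

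**Figure D3:**
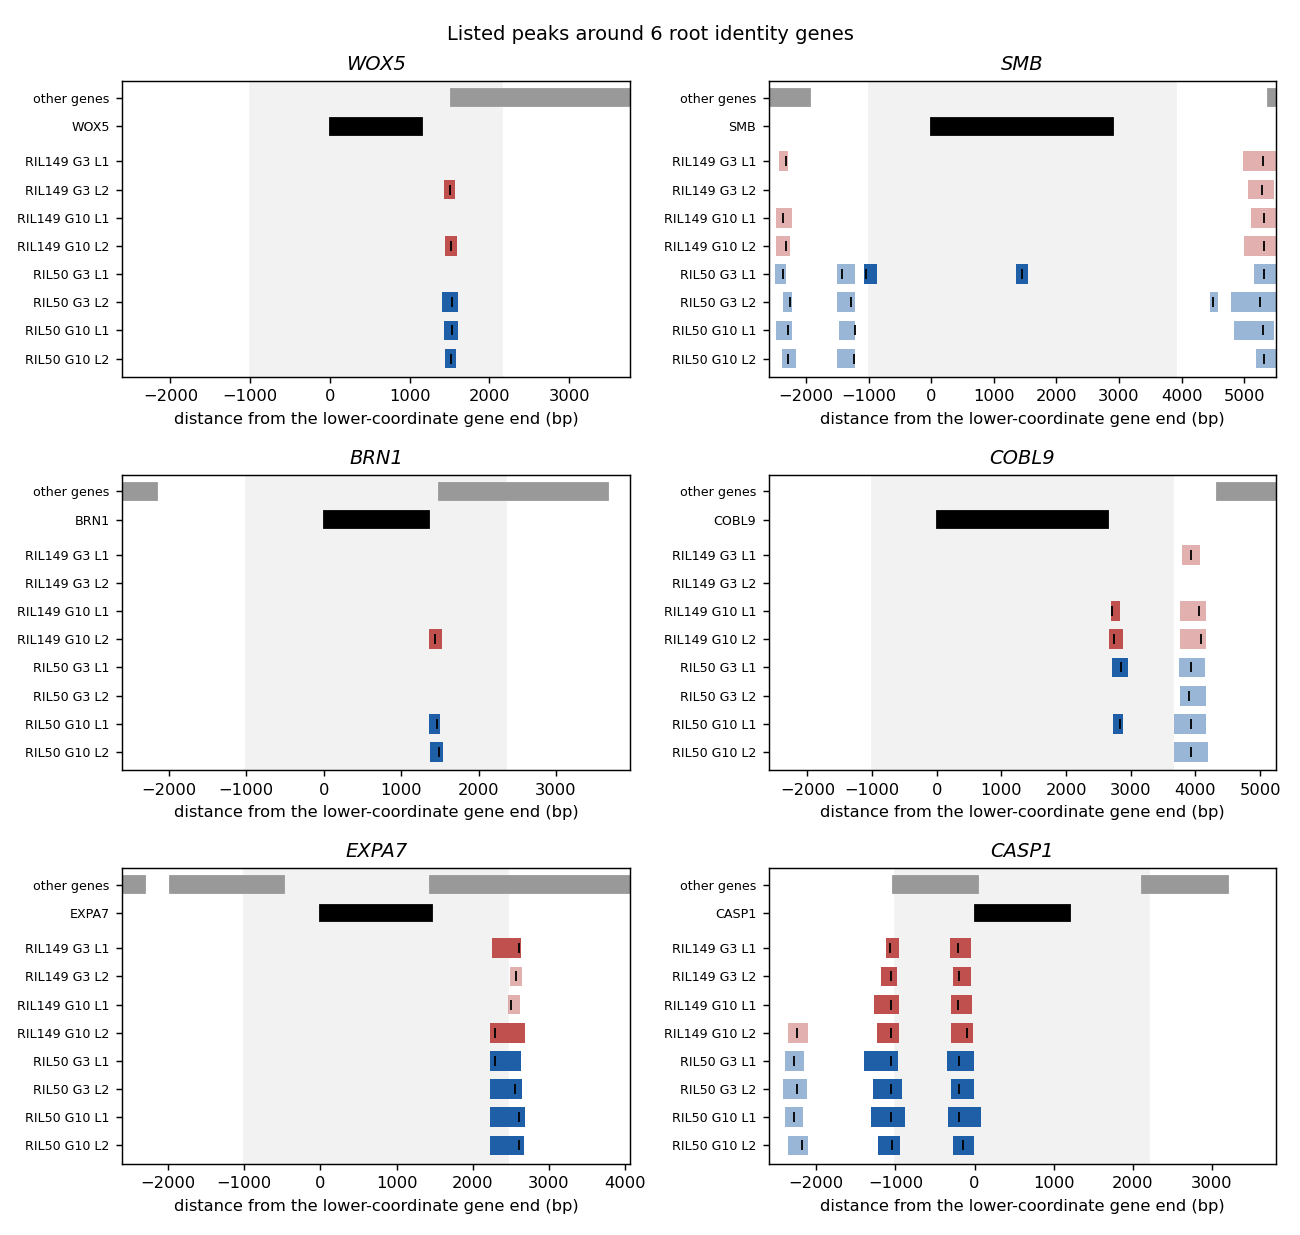
Listed peaks of the 8 libraries (red for RIL149, blue for RIL50; a black tick marks the summit) around 6 root identity genes, by distance in bp from the lower-coordinate end of the gene. Black bars are the named gene, dark grey bars other annotated genes, the shaded band is the gene with 1000 bp on either side, and peaks outside it are drawn pale. The WOX5, BRN1 and EXPA7 peaks stand at or in the neighbouring gene, and the peak 1222 bp from SMB is drawn for RIL50 only.

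Of the root hair genes, RHD6 had no peak in any library. It encodes a basic helix-loop-helix transcription factor that starts root hair formation. Its nearest listed peak lay 4557 to 7217 bp away, with a median of 6923 bp, farther than for 91.0% of protein-coding genes. It lay 4557 to 4576 bp away in 3 RIL149 libraries and 6918 to 7217 bp away in the others.

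COBL9 encodes a glycosylphosphatidylinositol-anchored protein needed for root hair growth and was the 1 gene to which summits lay nearest in several libraries. The fold was 2.28 and 3.05 in RIL149 generation 10 (lineages 1 and 2), and in RIL50 lineage 1 it was 4.46 at generation 3 and 2.33 at generation 10. The other 4 libraries had none within 1000 bp. The peaks lay between 19974549 and 19974843 on chromosome 5, 19 to 77 bp beyond the higher-coordinate end of the gene, and were 148 to 245 bp wide. They were weak within their lists, at the 5.72 to 40.9 percentile of fold. Presence in 1 generation 3 and 3 generation 10 libraries gave an exact permutation p of 0.486 (two-sided; adjusted p = 1). A further peak 1028 to 1153 bp from COBL9, just past the limit and nearest to AT5G49280, was listed in 7 of the 8 libraries, all but RIL149 generation 3 lineage 2.

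EXPA7, a cell wall loosening expansin of root hairs, had a peak within 1000 bp in all 4 libraries of RIL50 but 2 of 4 of RIL149 (two-sided exact permutation p = 0.429; adjusted p = 1). The difference rested on the distance limit. The same region, from 4278729 to 4279194 on chromosome 1, held a peak in all 8 libraries, and in RIL149 generation 3 lineage 2 and generation 10 lineage 1 the peak began 1028 and 1005 bp from EXPA7. In RIL149 its fold was 2.58 in both lineages at generation 3, then 2.26 and 2.82 in lineages 1 and 2 of generation 10. The RIL50 folds were 3.21 and 2.59 at generation 3, then 3.66 and 3.74 at generation 10. The folds of the lines overlapped. All summits lay inside AT1G12570, a gene that overlaps the end of EXPA7 by 23 bp.

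CASP1 was the only 1 of the 10 genes with a peak in every library. It encodes a membrane protein that scaffolds the Casparian strip, the barrier of the endodermis. Each library held a proximal and a distal peak on the lower-coordinate side of the gene, 16 in all. The proximal peaks lay between 15159245 and 15159672 on chromosome 2, with summits 95 to 204 bp from CASP1. The distal peaks lay between 15158200 and 15158716, with summits 1046 to 1063 bp from CASP1 and within 17 bp of each other. The proximal summits fell inside AT2G36090, which overlaps CASP1 by 49 bp, and the distal ones 16 to 33 bp beyond its far end. Every CASP1 summit thus lay in or beside this neighbour.

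The proximal CASP1 peak of RIL149 had folds of 3.99 and 3.32 at generation 3 (lineages 1 and 2) and of 4.64 and 5.23 at generation 10. Those of RIL50 were 4.01 and 3.50 at generation 3, then 4.83 and 4.96 at generation 10. Every generation 10 value lay above every generation 3 value, with means of 4.91 ± 0.248 and 3.71 ± 0.347 (SD, n = 4 each). The same was true of 2.28% of the 10916 regions with a peak in all 8 libraries, and the reverse of 0.293%. Each fold is relative to its own library, so the values are given as a description and were not tested.

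The distal CASP1 peak did not separate the generations. The RIL149 folds were 3.13 and 2.58 at generation 3, then 4.77 and 4.63 at generation 10. The RIL50 folds were 3.03 and 3.16 at generation 3, then 3.81 and 2.93 at generation 10. The lines overlapped at both peaks, and their means at the proximal one were 4.29 ± 0.821 (RIL149) and 4.33 ± 0.690 (RIL50; SD, n = 4 each). Of the regions in all 8 libraries, 1.72% had every RIL149 fold above every RIL50 fold and 2.48% the reverse. The edge of the proximal peak that faces CASP1 did differ between the lines. It stopped 14 to 41 bp short of the gene in the RIL149 libraries and 8 to 10 bp short in 3 RIL50 libraries, and it reached into the gene in RIL50 generation 10 lineage 1. Among the regions in all 8 libraries, 3.52% had every RIL50 peak end at a higher coordinate than every RIL149 peak end, and 1.42% the reverse. This difference was noticed in the data and was not tested.

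**Figure D4:**
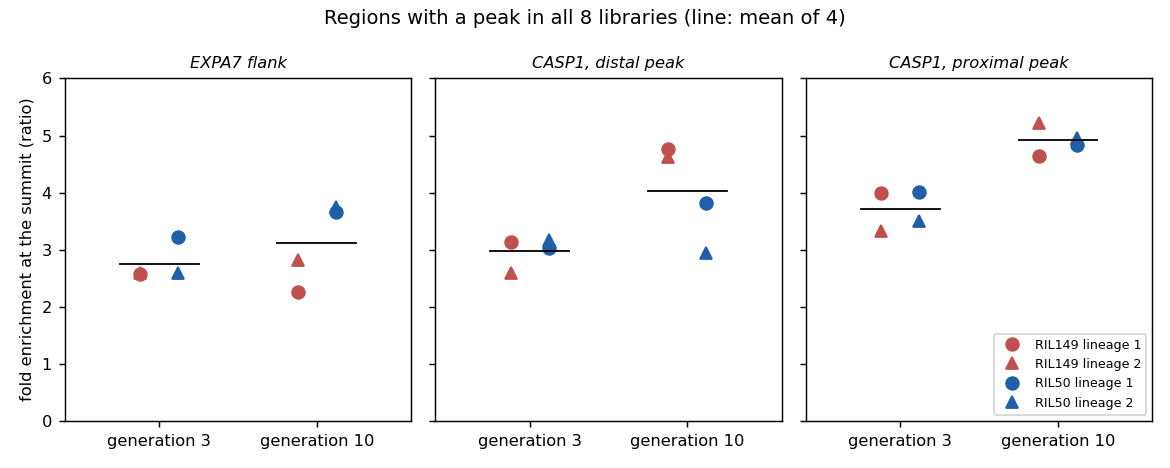
Fold enrichment at the summit, as a ratio, for the 3 regions with a peak in all 8 libraries that lay within 1000 bp of a root identity gene in at least 1 of them, by generation; the horizontal lines are means of 4 libraries. Generation 10 values of the proximal CASP1 peak, from 4.64 to 5.23, stand above those of generation 3, from 3.32 to 4.01, while the values overlap in the other regions.

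Between the lines, no root identity gene passed the test. RIL149 libraries held peaks for 2, 2, 2 and 5 of the 10 genes and RIL50 libraries for 4, 3, 5 and 4 (generation 3 lineages 1 and 2, then generation 10 lineages 1 and 2), with means of 2.75 ± 1.5 and 4 ± 0.816 (SD, n = 4 each), against 60.2% and 61.8% of all genes. The ranges overlapped. WOX5, SMB, BRN1 and EXPA7 had a peak in more RIL50 than RIL149 libraries, which was so for 14.5% of all genes, and 0 of the 10 had it in more RIL149 libraries, against 8.84%. In all libraries of one line and none of the other, a peak was listed for 0 of the 10 genes, against 0.74% of all genes (0.459% for RIL50 and 0.281% for RIL149). In the exact permutation test 0 of the 7724 genes with a peak in some but not all libraries passed after Benjamini-Hochberg adjustment, and 203, or 2.63%, had an unadjusted p under 0.05, none of them a root identity gene. The smallest p that 4 against 4 libraries can give is 0.0286, and too few of the 7724 genes reached it for any to pass.

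Between the generations, the result was the same. Generation 3 libraries held peaks for 2.75 ± 0.957 and generation 10 libraries for 4 ± 1.41 of the 10 genes (SD, n = 4 each), against 57.9% and 64.0% of all genes. WOX5, BRN1 and COBL9 had a peak in more generation 10 libraries and SMB in more generation 3 libraries, against 20% and 3.46% of all genes. None of the 7724 genes passed the exact permutation test after adjustment, and 63, or 0.816%, had an unadjusted p under 0.05, with 0 root identity genes among them. The libraries with peaks for 5 of the 10 genes, RIL149 generation 10 lineage 2 and RIL50 generation 10 lineage 1, held 21540 and 18896 nuclear peaks at backgrounds of 20.6 and 20.5. RIL50 generation 3 lineage 2, at the highest background of 25.3, held peaks for 3 genes. When each list was reduced to its 13186 strongest peaks by q, WOX5 still had a peak in 5 libraries and CASP1 in 8, but EXPA7 in 2, BRN1 in 2, COBL9 in 1 and SMB in 0. The means were then 1.75 for RIL149 and 2.75 for RIL50, and 1.75 for generation 3 and 2.75 for generation 10.

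**Figure D5:**
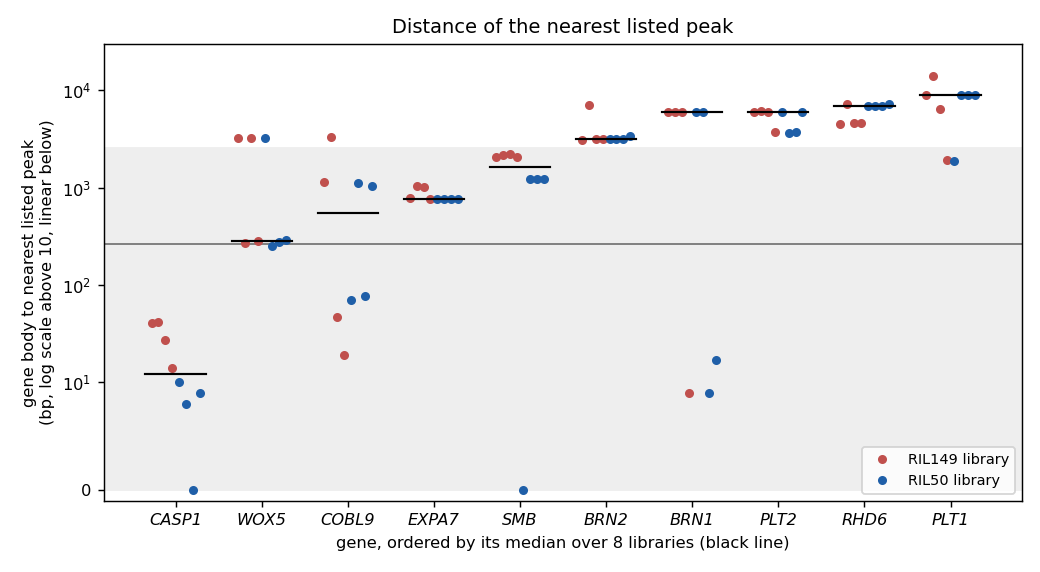
Distance in bp from each root identity gene to the nearest listed peak in each library (red RIL149, blue RIL50; log scale above 10 bp and linear below). The grey line and band are the median and the middle range, from the 25th to the 75th percentile, of all protein-coding genes, from 0 to 2545 bp; the medians of BRN2, BRN1, PLT2, RHD6 and PLT1 lie above the band.

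Over all 10 genes the median distance to the nearest listed peak was 2410 bp, against 265.5 bp for all protein-coding genes. The order by this distance ran from CASP1, with a median of 12 bp, over WOX5 (285 bp), COBL9 (552.5 bp), EXPA7 (769.5 bp) and SMB (1643.5 bp) to BRN2 (3176.5 bp), BRN1 (5941 bp), PLT2 (6040.5 bp), RHD6 (6923 bp) and PLT1 (9015 bp). CASP1, at 0 to 41 bp, did not overlap WOX5, at 251 to 3245 bp, but overlapped COBL9, SMB and BRN1, whose lowest distances were 19, 0 and 9 bp. WOX5, COBL9, EXPA7 and SMB overlapped in their ranges over libraries, and so did all of the last 5, of which BRN1, BRN2 and PLT1 (from 9, 3118 and 1866 bp) also overlapped some of the former.

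Of a further 35 genes that act in roots, 10 (28.6%) had a peak in all 8 libraries and 9 (25.7%) in none, against 45.2% and 26.6% of all protein-coding genes. In the stem cell niche list, 3 of 6 genes had peaks in all 8 libraries. These were JKD, a zinc finger gene, PLT3, a relative of PLT1 and PLT2 that also acts in the shoot, and the GRAS gene SCR. BBM, another AP2-domain gene of the same family, had none. The highest folds per library were 11.1 to 23.5 at JKD, 4.28 to 7.72 at PLT3 and 2.36 to 5.35 at SCR. Peaks overlapped the gene body in 2 libraries at JKD, in all 8 at PLT3 and in 7 at SCR.

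Among 10 further root hair and epidermal genes, CPC, GL2 and PRP3 had a peak in all 8 libraries and 5 had none, including EXPA18, LRX1, RSL1 and RSL2. A summit lay nearest to CPC and to GL2 in 8 libraries each and to PRP3 in 2. CPC and GL2 also pattern leaf trichomes, while RSL1 and RSL2 are root hair transcription factors related to RHD6. WER, a MYB gene of non-hair cells, had a weak peak in 4 of 4 generation 10 and 0 of 4 generation 3 libraries (exact permutation p = 0.0286, adjusted p = 1), which 0.23% of all genes did. Its folds were 2.03 to 3.25, and in 0 libraries was its peak nearest to WER.

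Among 7 further endodermal genes, CASP2 and CASP4 had peaks in all 8 libraries and none lacked a peak in every library. CASP2 peaks overlapped the gene body in 8 libraries, against 1 library for CASP1, and had highest folds per library of 3.95 to 6.98. CASP4 peaks reached folds of 6.28 to 13.5, but in 0 libraries did a summit lie nearest to CASP4. In the smaller lists, the root cap gene FEZ, the phosphate exporter gene PHO1 and the nitrate transporter gene NRT2.1 had no peak, and the vascular gene TMO5 and the lateral root primordium gene LRP1 had one in all 8 libraries. A summit lay nearest to LRP1 in 8 libraries and to TMO5 in 0.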

How the data were processed

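The authors profiled shoot nuclei by paired-end ATAC-seq, per the labels' protocols, and deposited 1 peak list per library on the TAIR10 build. Tools in the submitters' processing notes are MACS2 2.2.9.1, Trimmomatic 0.39, Picard and BWA 0.7.17. The sources used here do not state read shifting, mapping quality or organelle filters. In the deposited lists the fold is a ratio of summit pileup to local background, p and q are on the −log10 scale, the score is derived from q, and a further column gives the summit position. The lists hold no read counts. Here, the pileup and background were recovered from fold and p by the Poisson relation of MACS2, which gave a whole pileup within 0.001 of the −log10 p for 95.4% to 99.6% of peaks per library and for all 36 at the root identity genes.

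Groups came from the labels, since file names give generation numbers that differ by 1. Genes came from a RefSeq table of TAIR10.1 without strand, exons or sequence. None of its coordinates is printed, and only distances to gene ends are given. In all 10 bins of 5 Mb that hold a root identity gene, peak summits met gene ends best with no offset. Of 46 further genes listed, 45 matched by identifier and symbol, and 1 was left out. Gene names follow a rule: all 10 genes, and from each further list up to 4 with a peak in all 8 libraries, in none or in 4 of 4 of one group alone. The genes and lists were chosen with earlier results of these data known.

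Presence was compared between lines and between generations for each gene by exact permutation of the libraries (two-sided, 70 arrangements) and Benjamini-Hochberg adjustment over 7724 genes (Python 3.11.15, numpy 2.4.6, pandas 2.3.3). The libraries of a line and generation were of separate lineages, but each line is a single recombinant inbred line. Nothing says that plants were grown or nuclei prepared separately. A p-value thus covers only the spread among these libraries, part of which may be technical. In simulated data, 200 genes were given a peak in all RIL50 and no RIL149 libraries. All 200 had the smallest p, as that pattern must by construction. Since 0 genes passed after adjustment, a lack of calls does not show that groups are alike. Lineage numbers recur in both generations of a line. Deviations of same-numbered libraries had correlations of −0.00567 in RIL149 and 0.0360 in RIL50 across genes. The planned search of promoters for motifs was not run, since no sequence was used here. Alternatives were other windows, stricter peaks, equal list lengths, other overlap rules, leaving out each library and exchange within lineages.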

Additional observations from a re-analysis of the deposited data

Results flagged for a closer look

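Of 22 groups of 4 libraries examined for a sample far from the others, 2 had one. The limit is set for about 1 in 20 groups of independent continuous values, but these groups share libraries. Where 3 counts are equal, as in RIL149, any other count is flagged. In RIL149, the library of generation 10 lineage 2 had peaks for 5 of the 10 root identity genes and the other 3 libraries for 2 each. It held a peak for 68.7% of all genes, against 58.9%, 47.9% and 65.2% in the others. In generation 10, the proximal CASP1 peak was 421 bp wide in RIL50 lineage 1 and 266 to 284 bp in the others.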

How the results depend on the processing

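The number of root identity genes with a peak depended most on the window. With the gene body only, 2 of the 10 genes had a peak in at least 1 library and 0 in all 8 (53.9% and 26.1% of all genes), and the means per library were 0 in RIL149, 0.5 in RIL50, 0.25 at generation 3 and 0.25 at generation 10. With peaks counted only for the gene nearest to the summit, the counts were 2 and 0 and the means 0.5, 0.75, 0.5 and 0.75. With 500 bp the RIL50 mean was 3, and EXPA7 had a peak in 0 libraries instead of 6. With 2000 bp, 2 genes had a peak in all 8 libraries (54.7% of all genes), the means were 5.5 in RIL50 and 4 at generation 3, and 1 gene, SMB, was present in all libraries of one line and none of the other. With the same number of peaks per library, 13186, the RIL50 mean was 2.75 and the generation 3 mean 1.75. A −log10 q of at least 5, a fold of at least 2, 50% of the peak inside the window and the summit inside the window kept these counts within 1.5 times and the means within 1 SD, but the last left EXPA7 a peak in 2 libraries. Leaving out each library in turn gave 5 to 6 genes with a peak in at least 1 library and 1 in every library left (71.8% to 73.4% and 45.2% to 51.7% of all genes), with means of 2 to 3 (RIL149), 3.67 to 4.33 (RIL50), 2.33 to 3 (generation 3) and 3.67 to 4.67 (generation 10). It gave 0 to 1 genes specific to a generation, the 1 being BRN1 without RIL149 generation 10 lineage 1, and 0 specific to a line. Calls between lines and between generations were 0 in every setting. With the lineage as a replicate block the count of calls between generations was 0 as well, the smallest p being 0.125, and BRN1 had an exact p of 0.25. The causes of these shifts were not tested, beyond the fewer or more bases each window covers. Depth limits the absences: the weakest peaks listed at background had pileups of 18 to 40.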

Other observations

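Other peaks stood near the root identity genes but beyond 1000 bp. On the higher-coordinate side of SMB, a strong peak was listed in all 8 libraries, 1874 to 2280 bp from the gene, with folds of 8.47 to 12.6. Its summits lay 67 to 128 bp from SYP52, and it stood at the 85.7 to 93.1 percentile of its lists, above each of the 36 peaks counted for the root identity genes. On the lower-coordinate side of CASP1, a peak 2105 to 2169 bp from the gene was listed in 4 of 4 RIL50 libraries and in 1 of 4 RIL149 libraries, that of generation 10 lineage 2, where its fold was 2.17 against 2.69 to 3.80 in RIL50. A further peak 2581 to 2625 bp from CASP1 was listed in 3 RIL50 libraries and 0 RIL149 libraries. It was weak within its lists, at the 2.79 to 19.1 percentile of fold. These differences between the lines were not tested, and the share of all regions with splits of these sizes was not counted.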
